A study of Mus musculus with 33 samples.

Results

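The axon guidance ligands and receptors of the developing mouse frontal cortex were followed after early life exposure to e-cigarette aerosol. Genes were taken by name (the semaphorins, plexins, neuropilins, ephrins, Eph receptors, Slits, Robo receptors, netrins, Dcc and the Unc5 genes, without the Slitrk genes), which gave 71 genes, and 70 of the 23366 genes in each count table were kept because their counts scaled to library size (CPM), summed over the libraries of a table, reached 5 in both tables. The gene left out was Unc5cl. One kept gene, Unc50, matched by its letters only and is not a guidance receptor, so the set held 35 ligands, 34 receptors and this gene.

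The animals were C57BL/6 offspring about 1 month old. They came from dams exposed through gestation, and then together with their pups, to filtered air (6 females and 6 animals labelled male), to aerosol of classic tobacco flavor e-cigarettes with nicotine (13 to 16 mg/mL in the cartridge; 5 females and 6 labelled male) or to aerosol from cartridges without nicotine (5 and 5), 33 animals in all. The paper describes 6 animals per treatment and sex, and the exclusion of outliers found by principal component analysis. Animals left out do not enter the spread within groups given here. One pup was used per litter, and RNA came from a dissected piece of frontal cortex that holds all of its cell types. The libraries of each sex label had a sequencing run and a count table of their own, so that sex and run cannot be told apart and levels were compared only within a table.

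Guidance cues steer growing axons and migrating neurons. Semaphorins act through plexins, with neuropilins as co-receptors for the secreted class 3 members, ephrins act through Eph receptor tyrosine kinases at cell contacts, Slits act through Robo receptors, and netrins attract through Dcc or repel through Unc5 receptors. In the postnatal cortex the same proteins are known for roles at synapses, in dendrites and in glia.

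Total counts ran from 17845672 to 27513174 per library, and 67 of the 70 genes had at least 10 counts in every library, the others being Efna4 (3 to 25 counts), Ntn5 (4 to 54) and Epha1 (8 to 28). In replicate 21 of the animals labelled male with nicotine, Xist stood at 219 CPM and the Y-linked genes had 1 count in all, which goes against the label. It was kept under its label, and the counts of guidance genes called in the male comparisons and in the test between tables are also given without it, while the other male values include it. Slc17a7, a defining gene of cortical excitatory neurons, had at least 15055 counts in every library. The p-values measure the spread between single animals. The paper describes separate exposure chambers and a higher mean particulate level for the aerosol without nicotine. These cannot be told apart from the exposure, and the p-values do not cover them.

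In the air controls, levels per kilobase of exon spanned a wide range (the plot of levels by family). In the female table the gene means had a median of 6.08 CPM per kb and ran from 0.19 (Epha1) to 52.1 (Sema7a), and in the male table they had a median of 6.28 and ran from 0.288 to 51.2 (Efnb3). The same 10 genes were highest in both tables, namely Sema7a, Sema6b, Efnb3, Epha4, Plxnb1, Unc5a, Efnb2, Plxnd1, Unc50 and Ephb6. Sema7a, a membrane-anchored semaphorin, Sema6b, a transmembrane semaphorin, and Efnb3, the ephrin-B3 ligand of EphB receptors and EphA4, were the first 3 in both tables. Their order did not hold beyond the spread, because in female air the animals covered 37.5 to 70.2 CPM per kb for Sema7a, 47.0 to 48.2 for Sema6b and 32.8 to 49.0 for Efnb3. The low end was held by Robo3 (0.796 in female air), Epha2 (0.724), Efna4 (0.215) and Epha1.

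**Figure D1:**
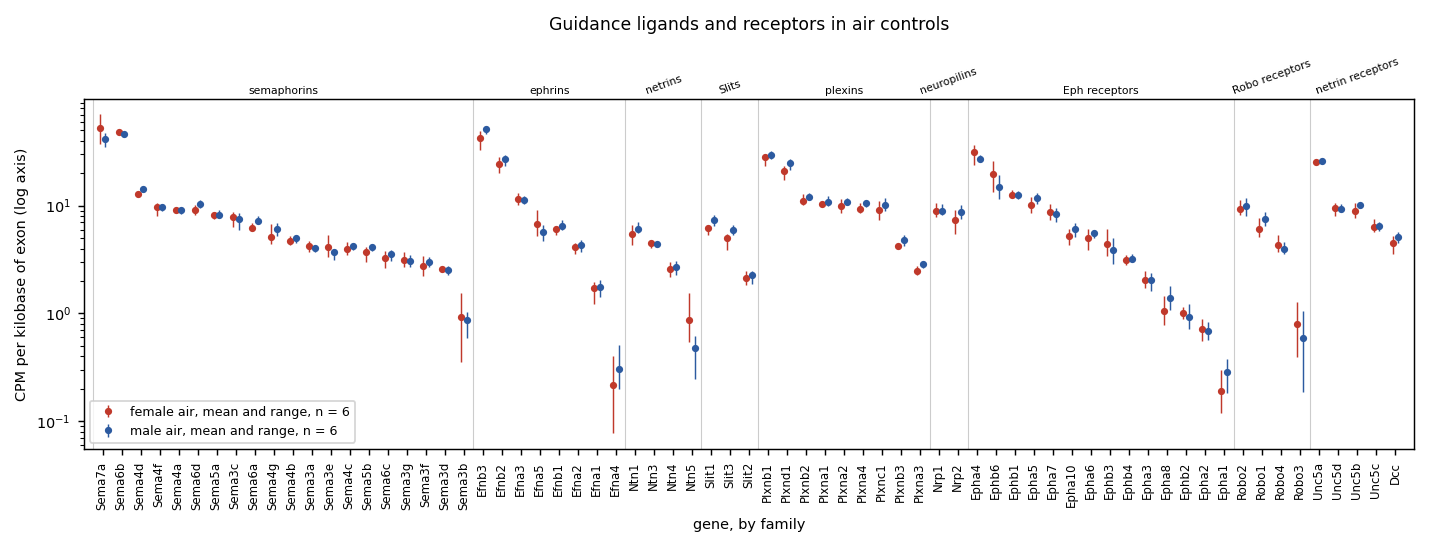
CPM per kilobase of exon (log axis) of 69 guidance genes in the air controls, ordered by family and then by level; points are means and bars the range over 6 animals, red for females and blue for males. Most genes lie near the median of about 6.08 to 6.28 CPM per kb, and Epha1, Efna4, Epha2, Robo3 and Ntn5 lie lowest.

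Each exposure was compared with air within each table to ask which guidance genes differed, with calls at an adjusted p below 0.01 (edgeR, Benjamini-Hochberg over all genes of the table). Of the 70 genes, 25 were called in at least 1 of the 4 comparisons with air, 11 of them higher and 14 lower than air, and no gene was called in both directions. The other 45 (64.3%) were called in none of the 4, beside 81.4% of the 15105 genes tested in both tables. The calls were mostly small: over the 38 calls the median absolute log2 fold change was 0.45, and only the 2 calls of Ntn5 exceeded a 2-fold change. Comparisons in a table share their air animals, so that the exposures of a table are not independent of each other.

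In females with nicotine, 9 of 70 guidance genes were called, beside 4.29% of all 15158 genes tested. Of these 5 were higher and 4 lower, beside 1.98% and 2.32% of all genes. Without nicotine 15 were called, beside 12.1% of all genes, 7 of them higher and 8 lower, beside 5.03% and 7.03%. Among males without nicotine, 14 of 70 were called, beside 13.6% of all 15293 genes tested, 9 of them higher and 5 lower, beside 6.15% and 7.47%, and 13 were called when replicate 21 was left out of the fit. Fits that each left out 1 animal called 4 to 12, 7 to 19 and 9 to 20 guidance genes in these comparisons, in the same order. None was called with nicotine in the male table, where 0% of all genes were called by edgeR and 10 guidance genes had an unadjusted p below 0.05, a level that 14.4% of all genes reached. DESeq2 and limma-voom also called none of the 70 there, and without replicate 21 the count was 0 with 11 at an unadjusted p below 0.05.

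The genes as a set were not displaced in 1 direction. Their median log2 fold change against air was -0.01 in females with nicotine (0.00 over all genes tested), 0.01 without nicotine (0.01 over all genes), 0.00 in males with nicotine (0.01) and -0.03 without nicotine (0.02). The median size of the change, regardless of sign, was 0.186 for guidance genes and 0.103 for all genes in females with nicotine, 0.203 and 0.123 without nicotine, 0.0918 and 0.0713 in males with nicotine, and 0.209 and 0.123 without nicotine.

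**Figure D2:**
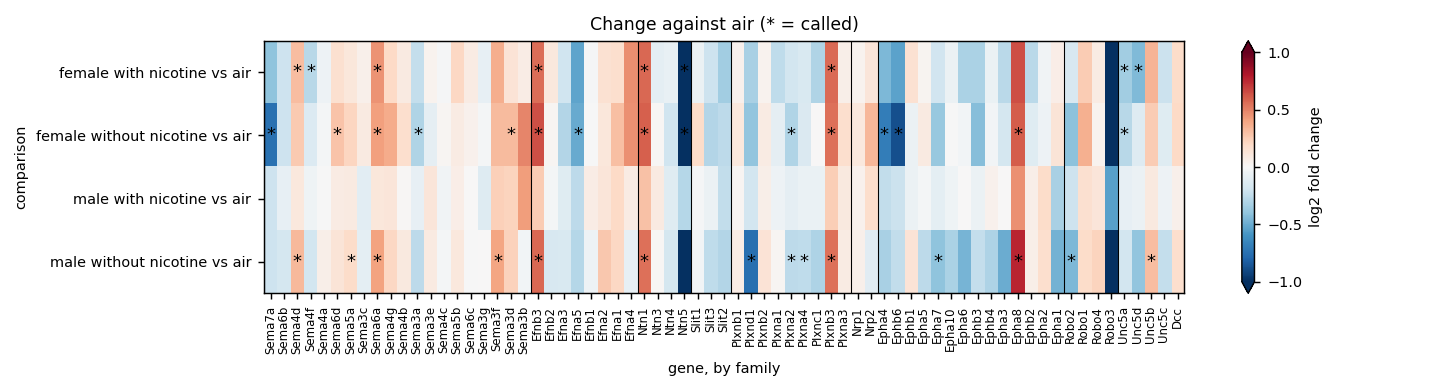
Log2 fold change against air (colour, cut at -1 and 1) of 69 guidance genes by family in the 4 comparisons; an asterisk marks an adjusted p below 0.01. Efnb3, Ntn1, Sema6a and Plxnb3 are marked and higher in 3 of the 4 rows, and the row of males with nicotine has no mark.

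Marker genes of cell types also differed from air, and their part in the results below was not tested. Over all genes, 1.98%, 5.03%, 0% and 6.15% were called higher (females with nicotine, females without, males with, males without). Called lower were 2.32%, 7.03%, 0% and 7.47%, in the same order. Myelin genes had higher levels: 10 of 10 were called higher in females with nicotine, 9 of 10 without nicotine, 10 of 10 in males without nicotine and 0 of 10 with nicotine. Their summed level ran from 8824 to 10670 CPM in female air, 14440 to 18400 with nicotine and 11870 to 17960 without nicotine, and in the male table from 10170 to 12520, 10390 to 16150 and 14850 to 25460, in the same order. Markers of cortical glutamatergic neurons were lower, with 2 of 15 called in females with nicotine, 12 of 15 without nicotine, 0 of 15 in males with nicotine and 12 of 15 without nicotine. Their sum ran from 4255 to 5370, 2784 to 3754 and 1824 to 3947 CPM in females and from 3914 to 4607, 2904 to 3858 and 1617 to 2773 CPM in males.

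Striatal projection neuron markers were called higher in 4 of 12, 2 of 12, 0 of 12 and 5 of 12 cases (females with nicotine, females without, males with, males without). Their sums ran from 1155 to 2815, 2558 to 3499 and 2236 to 2825 CPM in females and from 1608 to 2830, 1802 to 3605 and 1937 to 5130 CPM in males. Basal forebrain cholinergic markers such as Chat were called higher in 7 of 7, 7 of 7, 0 of 7 and 7 of 7 cases. Their sums ran from 20.1 to 79.6, 83.5 to 195 and 109 to 289 CPM in females and from 34.9 to 82.0, 94.5 to 144 and 112 to 238 CPM in males. No gene of these 4 lists was at 0 in any library. In males with nicotine, where edgeR called none of their genes, some had an unadjusted p below 0.05. They were 0 of 10 myelin, 9 of 15 cortical, 1 of 12 striatal and 7 of 7 cholinergic genes, beside 14.4% of all genes. Astrocyte, microglia and endothelium markers (8 genes each) had 0 calls in all 4 comparisons by edgeR, with 0 to 3 genes of a list at an unadjusted p below 0.05. Over all genes, 14.4% to 36.4% reached that level. In bulk tissue, fewer cells of a type and less RNA per cell cannot be told apart.

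**Figure D3:**
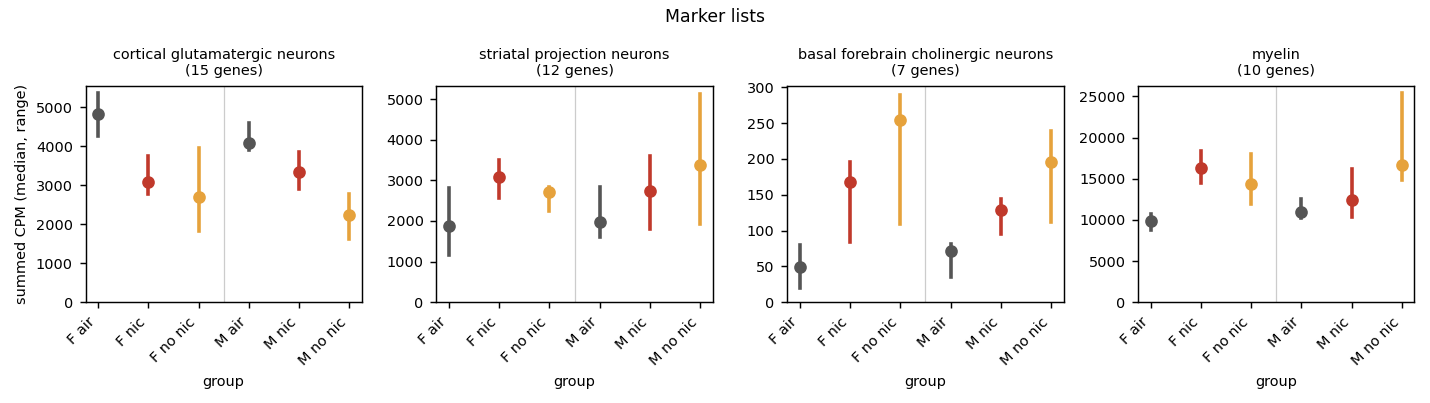
Summed CPM of 4 marker lists in the 6 groups; points are medians over animals and bars the range. The cortical list is highest in air in both tables, and the cholinergic list is lowest in air with no overlap with either exposed group.

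When the mean log2 CPM of the cortical list was added to each fit as a covariate, 0 guidance genes were called in each of the 4 comparisons, and the calls over all genes fell to 0, 0, 0 and 12 (females with nicotine, females without, males with, males without). With the myelin list as a covariate, chosen after the data were seen, 0 guidance genes were called and the calls over all genes were 0, 0, 0 and 29. These covariates differ between the groups themselves, so exposure and list level cannot be told apart in these animals.

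Among the ligands, Efnb3, Ntn1 and Sema6a were higher than air in both female exposures and in males without nicotine. Efnb3, on chromosome 11 (69367594 to 69373707, minus strand, mm9), encodes ephrin-B3, a transmembrane ligand that forms a midline barrier for corticospinal axons and is also known from myelinating oligodendrocytes. Its normalised level in female air was 104 CPM at the lowest, 138 at the median and 156 at the highest. With nicotine the 5 females had 171, 189.9, 206, 212 and 222 CPM, and without nicotine 157, 206, 211, 229 and 262 CPM. Neither exposed group overlapped air, although the lowest animal without nicotine lay just above the highest air animal.

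Efnb3 rose by a log2 fold change of 0.56 (SE 0.115, adjusted p = 0.00574, edgeR) with nicotine and 0.65 (SE 0.115, adjusted p = 0.0013) without. In the male table air ran from 148 CPM (median 167) to 174, nicotine from 165 (median 196) to 215, and the 5 animals without nicotine had 214, 229, 247, 256 and 267 CPM. Without nicotine the groups did not overlap and the log2 fold change was 0.57 (SE 0.0658, adjusted p = 2.15e-05), whereas with nicotine they overlapped and it was 0.25 (SE 0.0631, adjusted p = 0.0815). The female call with nicotine was kept in 8 of 16 fits that each left out 1 animal, and was lost without air replicates 2, 4, 5 or 6 or nicotine replicates 1, 2, 5 or 6 (highest adjusted p 0.0197). The other 2 calls were kept in every such fit.

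Ntn1, also on chromosome 11 (68022866 to 68214325, minus strand, mm9), encodes netrin-1, the founding netrin, which attracts axons through Dcc and repels them through Unc5 receptors. Female air ran from 27.1 CPM (median 34.3) to 41.2, the females with nicotine had 44.8, 45.9, 51.9, 54.9 and 56.6 CPM, and those without nicotine had 41.9, 48.7, 49.5, 58.9 and 59.5 CPM. All exposed females thus lay above all air females. The log2 fold changes were 0.58 (SE 0.107, adjusted p = 0.00321) and 0.60 (SE 0.107, adjusted p = 0.00133), and the first was lost without nicotine replicate 1 or 2 (highest adjusted p 0.0117). In males air ran from 34.7 (median 37.2) to 43.8 CPM, nicotine from 39.1 (median 46.8) to 51.9, and the animals without nicotine had 46.6, 47.3, 55.1, 62.9 and 65.4 CPM. The rise without nicotine was 0.55 (SE 0.0932, adjusted p = 0.000382) with no overlap, and the value with nicotine was 0.29 (SE 0.09, adjusted p = 0.133).

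Sema6a encodes a transmembrane semaphorin that signals through plexin-A2 and plexin-A4. It ran from 50.8 CPM (median 53.0) to 61.0 in female air. The females with nicotine had 61.5, 69.8, 74.7, 79.3 and 83.4 CPM and those without nicotine 61.2, 69.1, 72.2, 78.2 and 78.6 CPM. The lowest exposed animals lay just above the highest air animal, and the log2 fold changes were 0.45 (SE 0.0775, adjusted p = 0.00208) and 0.41 (SE 0.0774, adjusted p = 0.00164). Male air ran from 59.4 (median 63.7) to 70.6 CPM and nicotine from 65.3 (median 68.5) to 75.7, with a change of 0.11 (SE 0.0717, adjusted p = 0.525). Without nicotine the males had 72.0, 74.0, 80.6, 94.1 and 99.96 CPM, all above air, and the gene rose by 0.40 (SE 0.0744, adjusted p = 0.000749).

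Sema4d, on chromosome 13 (51796615 to 51889116, minus strand, mm9), encodes a transmembrane semaphorin that binds plexin-B1 and is known from oligodendrocytes. It ran from 77.9 CPM (median 82.0) to 86.2 in female air, and the females with nicotine had 95.0, 100.2, 103, 105 and 106 CPM, without overlap. The log2 fold change was 0.31 (SE 0.0689, adjusted p = 0.00862). Without nicotine the values were 85.4, 88.2, 91.8, 111 and 117 CPM, which overlapped air, and the change of 0.26 was not called (SE 0.0689, adjusted p = 0.011). In males it was called without nicotine (0.32, SE 0.0844, adjusted p = 0.00928) although 96.0, 101, 107, 132 and 139 CPM overlapped the air range of 88.4 (median 91.7) to 96.2. The 6 males with nicotine ran from 86.0 (median 97.2) to 116 CPM. These calls were fragile, being kept in 5 of 16 and 4 of 17 fits that left out 1 animal (highest adjusted p 0.0238 and 0.0356).

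Ntn5, on chromosome 7 (52939784 to 52949924, plus strand, mm9), encodes a little-studied netrin and was the guidance gene with the greatest called change, at very low levels. Female air ran from 0.859 CPM (median 1.32) to 2.41. The females with nicotine had 0.288, 0.309, 0.323, 0.482 and 0.719 CPM and those without nicotine 0.273, 0.289, 0.372, 0.441 and 0.489 CPM. All exposed females lay below all air females, and Ntn5 fell by 1.67 (SE 0.303, adjusted p = 0.00287) and 1.86 (SE 0.306, adjusted p = 0.000934) on the log2 scale. In males it ran from 0.384 (median 0.782) to 0.964 CPM in air and from 0.372 (median 0.472) to 1.09 with nicotine, and was 0.174, 0.304, 0.322, 0.379 and 0.465 CPM without nicotine. The first call was lost without nicotine replicate 2 or 6 (highest adjusted p 0.0107). The male groups overlapped, and the change without nicotine was -1.18 (SE 0.327, adjusted p = 0.013). Of the exon bases of Ntn5, 25.9% overlap the gene Sec1 on the opposite strand and 22.8% of its 50-base windows occur in other transcripts, and the use of strand in counting is not given in the sources used here, so its counts are uncertain.

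Other ligands were called once each. Without nicotine in females Sema7a fell by 0.75 (SE 0.153, adjusted p = 0.00259), from a mean of 172 ± 40.5 CPM (SD, n = 6) in air to 102 ± 18.5 (SD, n = 5). In the same comparison Efna5, a glycolipid-anchored ephrin that patterns cortical maps, fell by 0.51 (SE 0.123, adjusted p = 0.00705) and Sema3a, a secreted repellent, fell by 0.30 (SE 0.0737, adjusted p = 0.00742). The semaphorins Sema6d and Sema3d rose by 0.29 (SE 0.0619, adjusted p = 0.00374) and 0.32 (SE 0.0797, adjusted p = 0.00811). Sema4f, a transmembrane semaphorin of glutamatergic synapses, fell by 0.28 (SE 0.0597, adjusted p = 0.0072) in females with nicotine. In males without nicotine Sema3f, a neuropilin-2 ligand, rose by 0.40 (SE 0.101, adjusted p = 0.00763) and Sema5a rose by 0.18 (SE 0.0444, adjusted p = 0.00582). Of these calls Sema7a was lost only without no-nicotine replicates 2 or 3 (highest adjusted p 0.0105) and Sema6d without air replicates 4 or 6 or no-nicotine replicates 2 or 3 (0.0147), in fits that each left out 1 animal. The others were kept in 6 to 9 such fits of 16 or 17 (highest adjusted p 0.0309). The 3 Slits, of which Slit1 and Slit2 repel forebrain axons, and the netrins Ntn3 and Ntn4 had no call.

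Ligands and receptors were also counted apart. Of 35 ligands, 4 were called higher and 2 lower in females with nicotine, 5 higher and 4 lower without nicotine, and 6 higher and 0 lower in males without nicotine, all by edgeR. There 18 of the 35 had an unadjusted p below 0.05, a level that 36% of all genes reached. Of 34 receptors the counts were 1 higher and 2 lower, 2 higher and 4 lower, and 3 higher and 5 lower. As shares, 17.1%, 25.7% and 17.1% of ligands and 8.82%, 17.6% and 23.5% of receptors were called, beside 4.29%, 12.1% and 13.6% of all genes. The median log2 fold change without nicotine in males was -0.00032 for ligands and -0.24 for receptors, beside 0.02 for all genes tested, and in females it was 0.04 and -0.04 beside 0.01.

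The plexins, which are the semaphorin receptors, included genes that moved in opposite directions. Plxnb3, on the X chromosome (71002429 to 71017853, plus strand, mm9), encodes plexin-B3, the Sema5a receptor that is known from oligodendrocytes. Female air was narrow, from 25.8 CPM (median 27.5) to 28.5, and the exposed females had 33.9, 36.4, 43.2, 43.3 and 44.95 CPM with nicotine and 32.2, 34.2, 37.9, 45.6 and 50.1 CPM without. No exposed female overlapped air, and the log2 fold changes were 0.56 (SE 0.101, adjusted p = 0.00264) and 0.55 (SE 0.101, adjusted p = 0.0015). Male air ran from 27.3 (median 31.8) to 34.9 CPM and nicotine from 30.8 (median 35.9) to 45.6, with a change of 0.25 (SE 0.105, adjusted p = 0.285). The males without nicotine had 38.6, 39.9, 40.9, 54.3 and 55.1 CPM, all above air, and the rise was 0.55 (SE 0.108, adjusted p = 0.00127).

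Plxnd1, on chromosome 6 (115904829 to 115945023, minus strand, mm9), encodes plexin-D1, the receptor for Sema3e in vessels and in subsets of cortical and striatal neurons. Male air ran from 154 CPM (median 181.5) to 196, nicotine from 122 (median 166) to 185, and the males without nicotine had 85.5, 92.3, 106, 112 and 135 CPM. The animals without nicotine lay below all air animals and Plxnd1 fell by 0.75 (SE 0.112, adjusted p = 0.000134), whereas the value with nicotine was -0.18 (SE 0.105, adjusted p = 0.462). In females air ran from 124 (median 155.5) to 166 CPM, the animals with nicotine had 88.7, 116, 118, 124 and 156 CPM, and those without nicotine had 74.5, 98.8, 126, 128 and 147 CPM. Both female groups overlapped air, with changes of -0.33 (SE 0.15, adjusted p = 0.161) and -0.40 (SE 0.15, adjusted p = 0.0624).

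Plxna2, on chromosome 1 (196446023 to 196643063, plus strand, mm9), encodes plexin-A2, which binds Sema6a. In females air ran from 130.3 CPM (median 149) to 174, the animals without nicotine had 110.2, 121, 124, 124 and 128 CPM, all below air, and the gene fell by 0.30 (SE 0.0664, adjusted p = 0.00438). The females with nicotine had 121, 124, 134, 135 and 143 CPM and overlapped air (-0.18, SE 0.0663, adjusted p = 0.0818). In males air ran from 152 (median 159.9) to 179 CPM and nicotine from 144 (median 154) to 158. The males without nicotine had 122, 136, 136, 138 and 147 CPM, below all air animals, and the gene fell by 0.26 (SE 0.0488, adjusted p = 0.000816). The female call was lost without air replicate 4 or no-nicotine replicate 2, 3 or 5 (highest adjusted p 0.0161). Plxna4, the receptor partner of Sema6a and of class 3 semaphorins, fell by 0.25 in males without nicotine (SE 0.0507, adjusted p = 0.00152). Plxna1, Plxna3, Plxnb1, Plxnb2 and Plxnc1 had no call.

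The 250 bases before the annotated start are shown for these 3 plexins because they were called in opposite directions (RefSeq, GRCm38.p6, a later build than that of the counts). Sequences run 5′ to 3′ on the strand of the gene. Capitals mark matches on either strand to the GC box GGGCGG, to the SOX-type cores ACAATG and ACAAAG, and to the E-box CAGATG; the matches do not overlap each other.
Plxnb3, chrX:73756853-73757102, plus strand: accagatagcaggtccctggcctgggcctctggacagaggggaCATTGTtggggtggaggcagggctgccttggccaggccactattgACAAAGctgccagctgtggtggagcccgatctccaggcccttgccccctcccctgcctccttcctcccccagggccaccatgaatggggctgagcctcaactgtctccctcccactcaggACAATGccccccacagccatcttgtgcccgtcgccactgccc
Plxnd1, chr6:115995006-115995255, minus strand: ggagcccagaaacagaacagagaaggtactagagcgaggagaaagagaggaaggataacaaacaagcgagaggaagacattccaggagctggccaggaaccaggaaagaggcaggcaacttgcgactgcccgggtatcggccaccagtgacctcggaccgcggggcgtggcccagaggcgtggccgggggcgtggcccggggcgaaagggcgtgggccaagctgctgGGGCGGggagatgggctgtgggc
Plxna2, chr1:194619579-194619828, plus strand: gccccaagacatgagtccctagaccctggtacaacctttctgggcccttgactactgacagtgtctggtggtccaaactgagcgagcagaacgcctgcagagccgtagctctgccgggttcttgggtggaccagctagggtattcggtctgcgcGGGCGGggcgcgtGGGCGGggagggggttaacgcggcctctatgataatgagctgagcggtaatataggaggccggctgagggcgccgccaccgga

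The Plxnb3 window held 2 matches to ACAATG and 1 to ACAAAG and none to GGGCGG, whereas the windows of Plxnd1 and Plxna2 held 1 and 2 matches to GGGCGG and none to the SOX-type cores. None of the 3 held CAGATG. Of 32536 distinct promoter windows of this length, 33% held GGGCGG, 10.5% ACAATG, 16.5% ACAAAG and 14.4% CAGATG. The windows had 65.2% (Plxnb3), 64.8% (Plxnd1) and 62.8% (Plxna2) G or C, but 3, 16 and 18 CG dinucleotides. These are matches of letters and no factor was measured. Promoter entries were found for 60 of the 70 genes.

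The Eph receptors, tyrosine kinases that bind ephrins, had 14 members, of which 9 are EphA and 5 EphB genes. Epha8, on chromosome 4 (136485334 to 136512731, minus strand, mm9), was the single Eph gene called higher. It ran from 3.71 CPM (median 5.0) to 6.83 in female air, and the females without nicotine had 6.04, 7.09, 7.32, 7.88 and 9.56 CPM. These overlapped, and the log2 fold change was 0.60 (SE 0.149, adjusted p = 0.0077), a call kept in 6 of 16 fits that left out 1 animal (highest adjusted p 0.0284). The females with nicotine had 6.16, 7.54, 7.92, 8.12 and 9.26 CPM, with a change of 0.65 that was just outside the threshold (SE 0.149, adjusted p = 0.0102). Male air ran from 5.05 (median 6.33) to 8.46 CPM, nicotine from 7.42 (median 8.97) to 10.6, and the males without nicotine had 8.61, 9.47, 11.7, 11.9 and 13.8 CPM. The last group did not overlap air and rose by 0.76 (SE 0.144, adjusted p = 0.000879), and the call was kept in all 17 such fits.

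Epha4, on chromosome 1 (77363760 to 77511663, minus strand, mm9), encodes a receptor that binds ephrins of both classes and acts at cortical synapses. Female air ran from 152 CPM (median 200) to 233, and the animals without nicotine had 107, 116, 126, 127 and 139 CPM, all below air. Epha4 fell by 0.69 there (SE 0.117, adjusted p = 0.00103). With nicotine the values were 106, 141, 141, 158 and 181 CPM, which overlapped air (-0.45, SE 0.117, adjusted p = 0.0182). In males air ran from 159.5 (median 171) to 187 CPM, nicotine from 118 (median 146) to 176, and the animals without nicotine had 125, 128, 134, 134 and 168 CPM. Both overlapped air, and the change without nicotine was -0.32 (SE 0.0885, adjusted p = 0.0125). Ephb6, a receptor without kinase activity, fell by 0.88 in females without nicotine (SE 0.21, adjusted p = 0.00619; kept in 8 of 16 fits that left out 1 animal, highest adjusted p 0.0184), and Epha7, which shapes corticothalamic projections, fell by 0.40 in males without nicotine (SE 0.0738, adjusted p = 0.000749). The median log2 fold change of the 9 EphA genes in that male comparison was -0.32, with 7 at an unadjusted p below 0.05. Over all genes the median was 0.02, and 36% reached that level. In females without nicotine the EphA median was -0.03, with 3 genes at that level, beside 0.01 and 36.4% over all genes.

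Of the netrin receptors, Unc5a and Unc5d, which mediate repulsion and cell death signals, were called lower in females and Unc5b was called higher in males. Unc5a, on chromosome 13 (55050772 to 55107379, plus strand, mm9), ran from 101 CPM (median 106) to 109 in female air. The females with nicotine had 71.2, 81.7, 84.5, 86.0 and 92.4 CPM and those without nicotine 80.7, 81.4, 82.9, 93.5 and 97.8 CPM. All exposed females lay below air, and Unc5a fell by 0.34 (SE 0.0623, adjusted p = 0.00285) and 0.27 (SE 0.0621, adjusted p = 0.00469). In males air ran from 100.5 (median 108) to 114 CPM and nicotine from 87.8 (median 97.1) to 121, and those without nicotine had 83.0, 86.8, 93.6, 97.7 and 111 CPM. The call without nicotine was lost without air replicate 5 or 6 or no-nicotine replicate 2, 3 or 5 (highest adjusted p 0.0172). Both male groups overlapped air, with changes of -0.08 (SE 0.0819, adjusted p = 0.699) and -0.18 (SE 0.086, adjusted p = 0.137).

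Unc5d, on chromosome 8 (29757189 to 30329810, minus strand, mm9), marks upper-layer neurons during migration. It ran from 71.5 CPM (median 85.9) to 95.5 in female air, the females with nicotine had 55.3, 58.6, 62.3, 66.2 and 69.7 CPM, and it fell by 0.44 (SE 0.0718, adjusted p = 0.00159). The females without nicotine had 70.8, 74.1, 79.1, 80.7 and 82.9 CPM, above all those with nicotine. Their change against air was -0.13 (SE 0.071, adjusted p = 0.205), and the direct comparison of the exposures was not called (-0.31, SE 0.0747, adjusted p = 0.574). In males air ran from 79.5 (median 80.9) to 93.2 CPM, nicotine from 53.0 (median 82.8) to 92.8, and those without nicotine had 48.1, 62.0, 63.1, 72.8 and 73.3 CPM. These lay below air, but the change of -0.39 was not called (SE 0.119, adjusted p = 0.0212). Unc5b, the endothelial and neuronal netrin receptor, rose by 0.31 in males without nicotine (SE 0.0748, adjusted p = 0.00577), a call kept in 9 of 17 fits that left out 1 animal (highest adjusted p 0.0202). Dcc and Unc5c had no call.

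Of the Robo receptors, Robo2, which receives Slit signals, fell by 0.45 in males without nicotine (SE 0.103, adjusted p = 0.00382). The call was lost without air replicate 37 or 38 or no-nicotine replicate 3, 4 or 7 (highest adjusted p 0.0133). In females without nicotine its change was -0.41 (SE 0.119, adjusted p = 0.0194). Robo3, an atypical Robo of commissural axons, had the greatest changes among genes without a call, with log2 fold changes of -1.27 (SE 0.44, adjusted p = 0.0671) and -1.58 (SE 0.448, adjusted p = 0.0167) in females with and without nicotine and of -0.55 and -1.17 in males. Its levels varied within groups, from 2.68 CPM (median 5.13) to 8.64 in female air and from 0.926 to 4.72 with nicotine, which overlap. Robo3 and its place as an extreme were noticed after the values were seen. Nrp1 and Nrp2, the neuropilins, had no call.

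**Figure D4:**
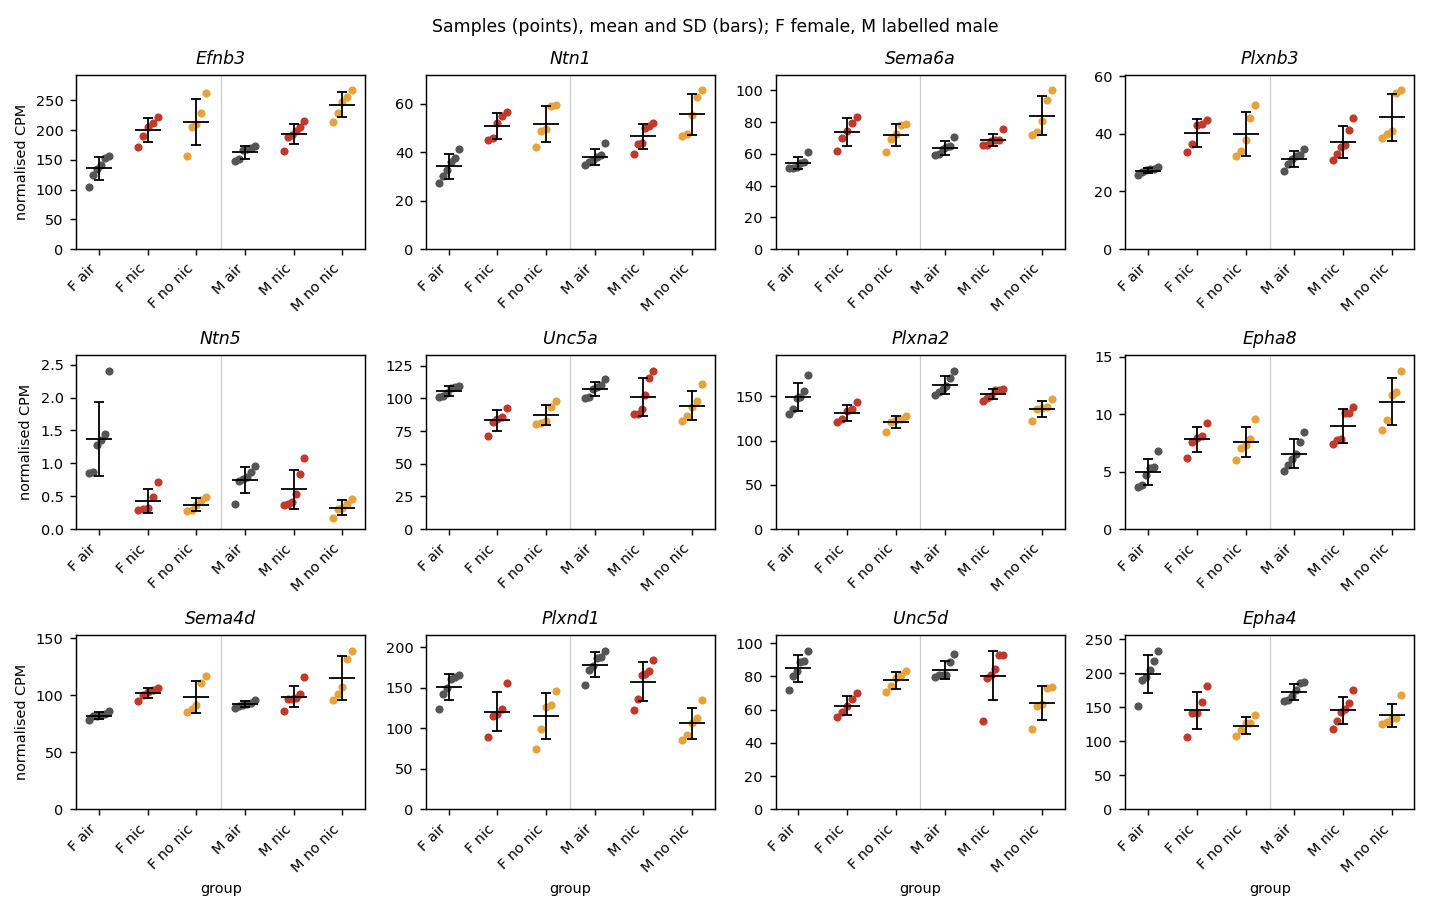
Normalised CPM of 12 guidance genes in every animal (points), with mean and SD (bars), for females (F) and animals labelled male (M) after air, aerosol with nicotine (nic) or without (no nic). In Efnb3, Ntn1, Sema6a and Plxnb3 all exposed females and all males without nicotine lie above the air animals of their table.

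The 45 guidance genes without a call against air (64.3%, beside 81.4% of all genes) were not called in the direct comparisons of the exposures either, and 31 of them changed by less than 0.2 in females without nicotine and 29 in males without nicotine. They comprised the semaphorins Sema3b, Sema3c, Sema3e, Sema3g, Sema4a, Sema4b, Sema4c, Sema4g, Sema5b, Sema6b and Sema6c, the ephrins Efna1, Efna2, Efna3, Efna4, Efnb1 and Efnb2, the Eph receptors Epha1, Epha2, Epha3, Epha5, Epha6, Epha10, Ephb1, Ephb2, Ephb3 and Ephb4, and the plexins, neuropilins, Slits, Robo1, Robo3, Robo4, netrins and netrin receptors without a call, with Unc50. Their log2 fold changes ran from -1.27 to 0.46 in females with nicotine, -1.58 to 0.49 without nicotine, -0.55 to 0.42 in males with nicotine and -1.17 to 0.27 without nicotine.

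Groups that do not overlap gave similar counts. In females with nicotine 5 guidance genes lay wholly above air and 4 wholly below, beside 3.07% and 3.6% of all genes (6.67% in either direction). Without nicotine the counts were 5 and 9, beside 4.4% and 6.27% (10.7%). In males without nicotine they were 8 and 5, beside 5.48% and 6.94% (12.4%). With nicotine every guidance gene overlapped air in the male table, beside 0.804% of all genes that lay wholly above and 1.24% wholly below (2.05%). Uncalled genes in these counts included Sema6b, which fell short of the threshold in both female exposures at -0.21 and -0.20 (adjusted p = 0.0245 and 0.0146), and whose air levels were tight, at 190.2 ± 1.83 CPM (SD, n = 6).

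Females and males without nicotine share no animals, so their changes were set side by side. In all, 6 genes were called in both tables, namely Efnb3, Ntn1, Sema6a, Plxnb3 and Epha8, which rose, and Plxna2, which fell. These are 40% of the 15 female calls and 42.9% of the 14 male calls, beside 64.4% and 56.5% for the calls over all genes. All 23 genes called in either table had the same sign in both, and so did 52 of all 70 guidance genes (74.3%), beside 77.7% of the 15105 genes tested in both tables. A test of the difference in change between the tables called 0 guidance genes and 0% of all genes for either exposure by edgeR. Of the 70, 9 had an unadjusted p below 0.05 with nicotine and 6 without, levels reached by 6.47% and 4.91% of all genes. Without male replicate 21 there were 0 calls, and 8 and 6 genes at that level. The calls in 1 table only, such as Unc5a in females and Plxnd1 in males, are therefore not shown to differ between the tables.

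**Figure D5:**
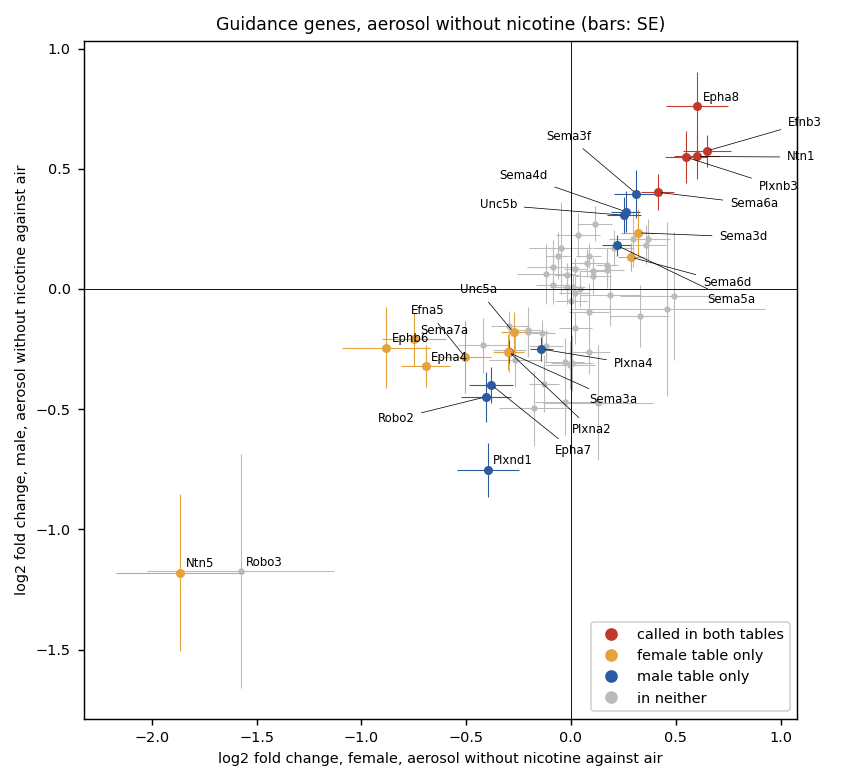
Log2 fold change against air of each guidance gene after aerosol without nicotine, in females (horizontal) and males (vertical), with SE bars; colours give the table in which a gene was called. All 23 coloured genes lie in the quadrants of equal sign, and Ntn5 and Robo3 lie farthest from 0.

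The exposures with and without nicotine were also compared directly within each table. In females 0 guidance genes were called by edgeR, beside 0% of all genes, and 6 had an unadjusted p below 0.05, a level that 8.35% of all genes reached. Plxnc1, Sema4f and Unc5d lay wholly lower with nicotine, beside 0.627% of all genes, and 0 lay wholly higher, beside 0.383% (1.01% in either direction). In males 0 were called, beside 0.248% of all genes (0.222% higher and 0.0262% lower with nicotine), every guidance gene overlapped between the exposures, beside 2.15% that did not over all genes (1.24% higher, 0.915% lower), and 25 had an unadjusted p below 0.05, a level that 20.1% of all genes reached. Without replicate 21 the counts were 0 and 27. The closest were Plxnd1, at 0.57 (SE 0.111, adjusted p = 0.0135), and Efnb3, at -0.32 (SE 0.0658, adjusted p = 0.0167), with nicotine relative to without. DESeq2 called 4 (Plxnd1, Efnb3, Epha7 and Sema6a) and limma-voom 1 (Plxnd1). Without nicotine replicate 19 edgeR called 4 (Plxnd1, Efnb3, Epha6 and Unc5d), and 1 each without no-nicotine replicate 2 (Plxna4) or 7 (Efnb3).

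The rest of the guidance pathway was read from 2 lists. Among 18 co-receptors and other guidance ligands, 0 were called higher and 2 lower in females with nicotine, 0 and 5 without nicotine, none in males with nicotine, and 1 and 4 without nicotine. These are 11.1%, 27.8%, 0% and 27.8% of the list, beside 4.29%, 12.1%, 0% and 13.6% of all genes. Nrcam, a cell adhesion partner of semaphorin receptors, fell by 0.33 (SE 0.0456, adjusted p = 0.000802) in females and 0.34 (SE 0.0387, adjusted p = 2.15e-05) in males without nicotine. Lrrc4, a netrin-G ligand at synapses, fell by 0.45 and 0.32 (adjusted p = 0.000973 and 0.000429). Rgma, the repulsive guidance molecule that binds neogenin, rose by 0.25 in males (SE 0.0396, adjusted p = 0.00023).

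Among 48 intracellular mediators, 3 were called higher and 2 lower in females with nicotine, 3 and 8 without nicotine, none in males with nicotine, and 4 and 9 without nicotine. These are 10.4%, 22.9%, 0% and 27.1% of the list, beside the same shares of all genes. Chn2, a Rac-inactivating chimaerin, rose by 0.54 in females (SE 0.0881, adjusted p = 0.000934) and 0.49 in males (SE 0.0901, adjusted p = 0.000695) without nicotine. Dpysl2, the semaphorin mediator CRMP, rose by 0.33 in females (SE 0.0541, adjusted p = 0.000934), and Srgap1, a Slit-Robo GTPase-activating protein, rose by 0.51 in males (SE 0.096, adjusted p = 0.000838). Rnd1, a GTPase that binds plexins, and Ptk2, the focal adhesion kinase, fell by 0.45 (SE 0.0744, adjusted p = 0.000965) and 0.37 (SE 0.0687, adjusted p = 0.00153) in females. Rock2, a kinase of the actin cytoskeleton, and Mical2, an actin-oxidising enzyme, fell by 0.39 (SE 0.0417, adjusted p = 2.15e-05) and 0.95 (SE 0.109, adjusted p = 2.15e-05) in males.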

How the data were processed

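RNA-Seq of frontal cortex was analysed in 33 samples. The authors deposited raw read counts per gene, 1 table per sex label. They mapped single reads to the mm9 transcriptome with Bowtie, removed PCR duplicates with SAMtools and counted with HTSeq, so the counts lack duplicate reads, which lowers highly expressed genes most. Strand use and the handling of reads shared by similar genes are not given in the sources used here. The deposited normalized tables were not used, and 1 count column that matched no labelled sample was left out. Groups came from the titles. Genes with a summed CPM of at least 5 were tested with the edgeR 4.0.16 quasi-likelihood test after TMM, 3 groups of a table in 1 fit, p adjusted by Benjamini-Hochberg over all genes and called below 0.01. The difference between tables was tested in a fit of 6 groups. Values per sample are normalised CPM. Alternatives were DESeq2 1.42.0, limma-voom (limma 3.58.1) with quality weights, other scalings and filters, the compared pair alone, marker scores as covariates, the replicate number as a block and leaving out each sample. The code was tested on simulated data. Members, lists and tests were chosen with earlier results of these data known. Per-sample values are given for the 12 members called in most comparisons with air (ties by smallest p), statistics for every called member, and up to 2 called genes per direction of each pathway list. Robo3, Sema6b and the members named for the direct comparisons of exposures were named after their values were seen. Positions are from the mm9 annotation. R 4.3.3, Python 3.11.15, pandas 2.3.3 and matplotlib 3.10.9 were used.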

Additional observations from a re-analysis of the deposited data

Results flagged for a closer look

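The animals of each group were checked for a single value far from the others in the 12 guidance genes given per sample, 72 groups in all, and 5 stood apart. Chance gives about 1 in 20 groups. Sema6a was highest in female air replicate 1, at 61.0 CPM with the others between 50.8 and 54.5, and in male nicotine replicate 19, at 75.7 CPM with the others between 65.3 and 68.7. Ntn5 was highest in female air replicate 2, at 2.41 CPM with the others between 0.859 and 1.44. Unc5d was lowest in male nicotine replicate 19, at 53.0 CPM with the others between 78.9 and 92.8. Epha4 was highest in male no-nicotine replicate 5, at 168 CPM with the others between 125 and 134.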

How the results depend on the processing

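With DESeq2 the members called numbered 14, 23 and 24 (females with nicotine, females without, males without) and all 38 single-gene calls were kept, and the direct male comparison gave 4. limma-voom gave 13, 21 and 16, and 1 in the direct male comparison, and lost 2 of the 38 calls (Sema3d, Sema4d in males). Fits of the compared pair alone lost 5 (Sema4f, Epha8 and Sema3d in females, Sema4d and Unc5b in males), DESeq2 size factors 1 (Sema4d in males) and the replicate block 18 of 24. A cortical or myelin marker score as covariate left 0 in each, and reversed the fitted sign of Plxnb3 (-0.0268) and Sema4d (-0.119) in females with nicotine and of Sema3d (-0.0114) in females, and of Sema4d (-0.0784) and Unc5b (-0.00677) in males, without nicotine (myelin score), and of Ephb6 (0.0596), Sema6a (-0.0183) and Sema7a (0.00128) in females without nicotine (cortical score). Replicate numbers are shared by the female groups. Same-numbered animals correlated from -0.273 to 0.266, with 4 of 14 pairs over 0.1. Their median was 0.0144, beside -0.00398 for animals of different groups and numbers. Of 16 samples, 7 correlated best with an animal of their own number, and how many would do so by chance was not computed. Whether the numbers mark pairs is thus not settled. The main fits did not use them because the study describes no pairing. With the replicate block 1 and 5 members were called in females with and without nicotine and 0 in the direct comparison. Leaving out 1 animal gave 4 to 12, 7 to 19 and 9 to 20 members. The counts moved by over 1.5 times without female nicotine replicate 2 (4) or 6 (5), without female air replicate 5 (9) or 6 (8) or no-nicotine replicate 2 (7), 3 (7) or 5 (8), and without male air replicate 38 (9) or no-nicotine replicate 3 (9). The direct male comparison gave 0 to 4, and the other counts stayed at 0. The causes of these shifts were not tested. Other scalings, filters and fits of the pair alone stayed within 1.5 times. Apart from the marker covariates, calls over all genes in these alternatives are not set beside the member counts. A shift in a member count is therefore not read as particular to the guidance genes. Low counts limit Efna4, Epha1 and Ntn5.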

Other observations

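Marker lists of further cell types and neighbouring regions were read in the same fits, each as genes called higher and lower in females with nicotine, females without, males with and males without nicotine (edgeR). Over all genes the shares called higher and lower were 1.98% and 2.32%, 5.03% and 7.03%, 0% and 0%, and 6.15% and 7.47%. Of 8 genes of GABAergic interneurons the counts were 2 and 1, 4 and 2, 0 and 0, 3 and 1. Of 6 genes of oligodendrocyte precursors they were 1 and 0, 3 and 0, 0 and 0, 3 and 0, and of 6 thalamic genes 2 and 0, 2 and 0, 0 and 0, 2 and 0. Of 6 hypothalamic genes the counts were 0 and 0, 1 and 0, 0 and 0, 2 and 0, and of 7 choroid plexus genes 0 and 0, 0 and 0, 0 and 0, 3 and 0. The summed choroid plexus level was 950.8 CPM in male no-nicotine replicate 7 and 30.1 to 52.2 in the other 4 animals of that group, and its highest values in females were 327 CPM in air and 286 without nicotine. No olfactory bulb gene was called in these comparisons, with 0 to 2 genes at an unadjusted p below 0.05, beside 14.4% to 36.4% of all genes.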
